A study of Homo sapiens with 7 samples.

Results

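Claudins are the membrane proteins that build the strands of tight junctions, the seals between neighbouring epithelial cells. Some of them close the space between cells, whereas others line pores that let selected ions through, and each epithelium sets its permeability by the claudins it makes. GATA6 is a DNA-binding protein with zinc fingers that acts in the gut and other organs of endodermal origin, and it binds around the letters GATA. The regions described here are the neighbourhoods of 8 claudin genes, CLDN1, CLDN3, CLDN4, CLDN7, CLDN12, CLDN15, CLDN18 and CLDN23, in a list of GATA6 peaks. A peak belonged to a locus when its summit lay in a set hg19 window around the gene, and CLDN3 with CLDN4 shared 1 window. The windows ran from 189.92 to 190.14 Mb (CLDN1) and 137.61 to 137.86 Mb (CLDN18) on chromosome 3, and from 73.08 to 73.35 Mb (CLDN3 and CLDN4), 89.91 to 90.15 Mb (CLDN12) and 100.77 to 100.98 Mb (CLDN15) on chromosome 7. Those of CLDN7 and CLDN23 ran from 7.06 to 7.27 Mb on chromosome 17 and from 8.4 to 8.7 Mb on chromosome 8. The 7 windows spanned 1.7 Mb together and held 12 of the 7568 peaks.

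The peaks came from chromatin immunoprecipitation followed by sequencing (ChIP-seq) in LS174T, an established colorectal carcinoma line, with an antibody to human GATA6. Per the labels, GATA6 was precipitated in 3 libraries, 1 library was input DNA without antibody, and 3 libraries carried the histone marks H3K27ac, H3K4me3 and H3K4me1. No treatment is named for any library, and the cells were grown with 10% serum and fixed with 1% formaldehyde for 15 min, so no other cell type or state was compared. The GATA6 peak list was the file used, and it gave no value per library, so no spread between replicates can be given, and library depths are unknown. Nothing in the labels said whether the 3 libraries came from separate cultures.

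GATA6 peaks were unevenly spread over the claudin loci. The CLDN23 window held 6 peaks, the CLDN12 window 3, the CLDN3 and CLDN4 window 2 and the CLDN1 window 1, whereas the CLDN7, CLDN15 and CLDN18 windows held 0. The CLDN1 peak had a height of 130 fragments (the coverage at its summit), while the other 11 peaks lay between 8 and 35. The members were selected on the summit positions of this same list, with its heights known, so counts and heights are described without a test.

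Sequence is shown for 3 of the genes because they differ in both the peak data and the letters GATAA. These are the 250 bases before the annotated start, from RefSeq on GRCh38.p14, written 5′ to 3′ on the gene's own strand, with GATAA or its reverse complement TTATC in capitals. CLDN1 (chr3:190322447-190322696, minus strand) had a peak at the rounded position of its start, CLDN12 (chr7:90403211-90403460, plus strand) had peaks in its window, and CLDN18 (chr3:137998566-137998815, plus strand, the first of 2 annotated starts) had no peak in its window.
CLDN1: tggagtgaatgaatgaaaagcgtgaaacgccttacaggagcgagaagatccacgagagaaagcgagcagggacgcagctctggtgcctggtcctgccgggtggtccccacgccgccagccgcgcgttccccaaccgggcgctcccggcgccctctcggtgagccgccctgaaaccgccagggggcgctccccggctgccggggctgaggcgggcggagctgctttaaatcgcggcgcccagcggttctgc
CLDN12: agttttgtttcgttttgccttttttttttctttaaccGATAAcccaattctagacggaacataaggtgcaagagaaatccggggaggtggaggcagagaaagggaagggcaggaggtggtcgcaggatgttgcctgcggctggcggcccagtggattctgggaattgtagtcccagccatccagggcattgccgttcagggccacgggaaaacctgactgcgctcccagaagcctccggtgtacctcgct
CLDN18: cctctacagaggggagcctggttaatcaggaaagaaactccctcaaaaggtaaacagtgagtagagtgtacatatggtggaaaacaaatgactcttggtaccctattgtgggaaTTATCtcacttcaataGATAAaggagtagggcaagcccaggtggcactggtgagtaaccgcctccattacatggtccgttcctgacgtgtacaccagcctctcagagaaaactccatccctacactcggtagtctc

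Promoters of 300 bases, 250 before the start and 50 after it, were matched for 7 of the 8 genes, all but CLDN23, and CLDN7 and CLDN18 had 2 starts each. GATAA on either strand was found in 2 of these 9 promoters, against 22.7% of 35116 promoters in the RefSeq table. The CLDN12 match lay 213 bases before the start. The CLDN18 matches began 136 and 120 bases before the first start, on opposite strands, and both extended to AGATAA, a longer form that contains GATAA and was present in 10.3% of all promoters. CLDN1, CLDN3, CLDN4, CLDN7 and CLDN15 had no GATAA in these windows. The peak positions are those of hg19 and the promoter positions those of GRCh38.p14, so no peak was placed on these letters. Only the promoter windows were searched, and the sequence under the peaks was not. At CLDN1 the peak reached 1084 bp upstream of the rounded start, beyond the 250 bases searched.

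The letters CAGGTG, the E-box form bound by repressors such as Snail, were searched on both strands for comparison. Of the 9 promoters, 3 held them, against 20.6% of all promoters and 5 of 18 promoters of claudin genes outside these loci. Among the 9, 1 of the CLDN7 promoters had 5 matches, and the further promoters with a match belonged to CLDN3 and to CLDN18. That CLDN7 promoter had 71.7% G and C. The share of all promoters with as many matches was not counted, and the part of base composition in the matches was not tested. Claudin promoters varied widely in base composition, from 49.3% G and C at the first CLDN18 start to 72.0% at CLDN3, with 67.0% at CLDN1 and a median of 58.7% over all promoters.

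Each window was set beside every non-overlapping stretch of its own width (a tile) between the first and the last summit of chromosomes 1 to 22 and X. Over the 7 widths, tiles held 4.42 peaks in sum on average, against the 12 counted, and 2.42 of 7 such tiles would hold a peak on average, against 4 windows. The share of tiles with at least 1 peak was 32.4% at the CLDN1 width, 37.2% at the CLDN3 and CLDN4 width, 31.4% at the CLDN7 and CLDN15 width, 34.4% at the CLDN12 width, 35.1% at the CLDN18 width and 39.9% at the CLDN23 width. Without CLDN23, 6 peaks in 1.4 Mb gave 4.29 peaks per Mb, in place of 7.06, against 2.61 over the chromosomes. The windows were chosen with these peaks known, so these differences are no evidence of enrichment at claudin loci. Each window surrounds a gene, whereas tiles were not matched for genes. No tile was left out for sequence in which peaks cannot be called. Among tiles in 1 Mb bins that hold a peak, 43.8% at the CLDN1 width held at least 1. In those bins, 57.6% of tiles at the CLDN7 and CLDN15 width and 52.8% at the CLDN18 width held none. Such bins are chosen by their peaks, which raises the share with a peak by construction. Having a peak at all was therefore common at this scale, and neither a window with a peak nor one without it stands out by that alone.

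**Figure D1:**
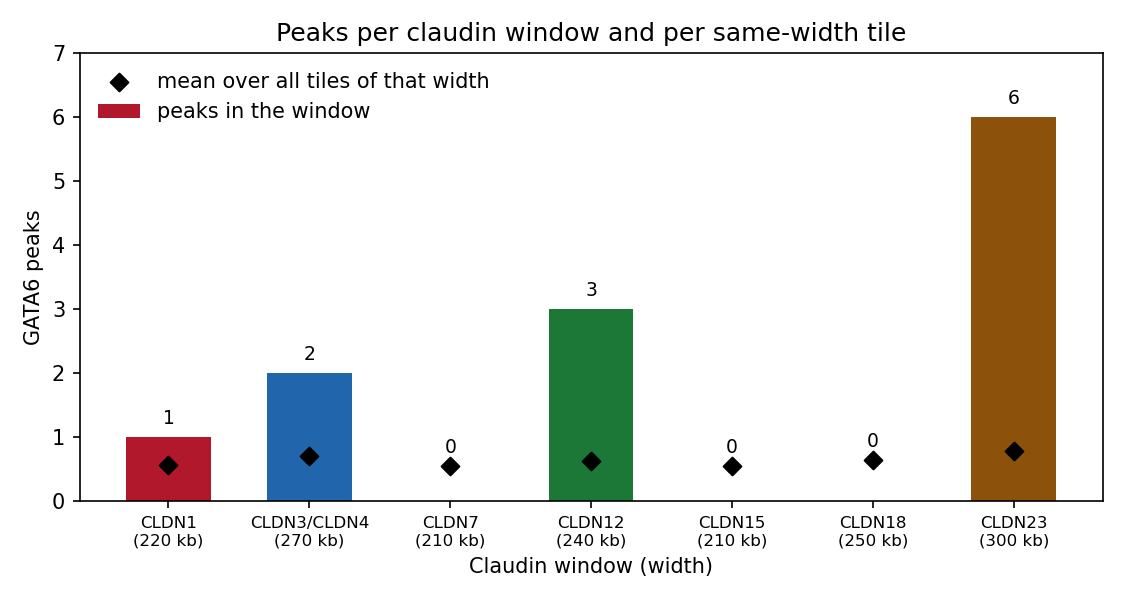
Number of GATA6 peaks (y axis) in each of the 7 claudin windows (x axis, with the window's width), drawn as bars, with the mean number in all tiles of the same width as diamonds. CLDN23 with 6 and CLDN12 with 3 peaks rise farthest above the diamonds, which lie between 0.546 and 0.780, and 3 windows have 0.

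At CLDN1, GATA6 gave the highest and widest peak of the list. CLDN1 encodes a barrier-forming claudin that is needed for the water barrier of the skin and is also made in the intestine. The peak reached from chr3:190039862-190041084, a width of 1223 bp, and its summit was at position 190040588. Its height of 130 fragments (95% Poisson interval 109 to 154) was 8.13 times the list median of 16, and its width was 4.87 times the median of 251 bp. With a fold of 43.44 over its local background, its −log10 p was 160.85, rank 2 in the list, and its −log10 q was 153.92. It was the only peak in its window, and 32.4% of tiles of that width held a peak as well, or 20.2% a peak with a −log10 p at or above the list median of 12.98.

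The CLDN1 peak lay at or close to the start of the gene. The start was taken as 190.04 Mb, known here to the nearest 1000 bp, on the minus strand. The peak held this position, with 138 bp on the gene's side and 1084 bp on the upstream side, so a start at the lower end of the rounding would lie just outside it. The summit lay 588 bp upstream of it, or between 88 and 1088 bp given the rounding. In the RefSeq order of genes, CLDN1 overlaps CLDN16, which encodes a claudin of magnesium transport in the kidney, so the peak cannot be given to CLDN1 alone by position.

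The CLDN1 peak combined height and width in a way that no other peak of the list did. The other 15 peaks with heights of at least 80 were 341 to 584 bp wide, with a median of 441 bp. The 9 next widest peaks were 861 to 1128 bp wide, but their heights were 23 to 64 fragments. Its height was not resolved from the next highest, 112 fragments (92.2 to 135), since the Poisson intervals overlapped. This describes the peak and is not a test, because the locus was chosen for it.

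**Figure D2:**
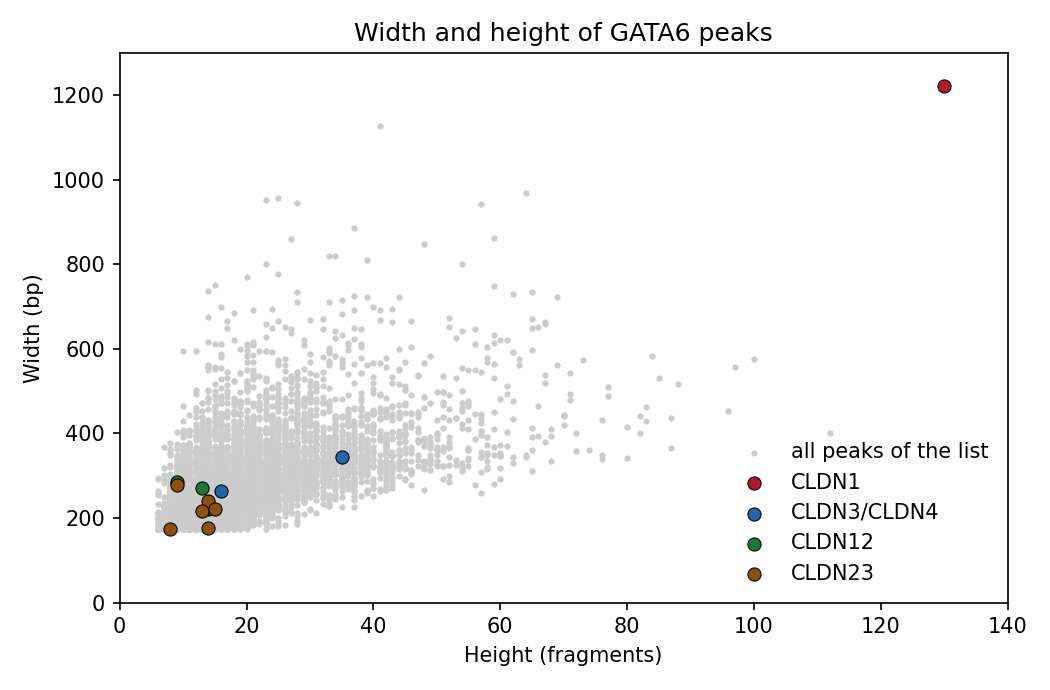
Width in bp (y axis) against height in fragments (x axis) of all 7568 peaks (grey) and of the 12 claudin peaks (colours by window). The CLDN1 peak stands at 130 fragments and 1223 bp, apart from the rest. The CLDN12 and CLDN23 peaks lie at low heights, with widths of 175 to 286 bp around the list median of 251 bp.

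The local background at the CLDN1 peak, computed as height divided by fold, came out higher than at most peaks. It was 2.99 fragments, against a list median of 1.05, and 93.8% of peaks had a lower value. A further 481 peaks had the same background within 0.5%. Their median height was 21 and their highest 85 fragments, and their folds had a median of 7.02 and a maximum of 28.4, below the 43.44 at CLDN1. By fold, which divides by this background, the CLDN1 peak ranked 217. No interval was computed for this background, a low number, so the counting error of the fold and of its rank is not known. The part of this background in the height or width of the peak was not tested.

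Peaks also flanked the CLDN1 window. On the upstream side, 24.6 kb beyond the edge, the peak at chr3:190164400-190164795 was 44 fragments high (32.0 to 59.1) at a fold of 72.01, rank 36. On the other side, 46.5 kb beyond the edge, the peak at chr3:189873378-189873626 was 11 fragments high (5.49 to 19.7) at a fold of 12.6. The CLDN1 summit was 124 kb from its nearest neighbour, close to the median distance of 128 kb between neighbouring summits of the list.

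At CLDN3 and CLDN4, a peak with a large fold lay beside a weaker one. Both genes encode barrier-forming claudins that serve as receptors of the Clostridium perfringens enterotoxin, and they are direct neighbours in the RefSeq order. The peak at chr7:73207871-73208214 was 35 fragments high (24.4 to 48.7) with a fold of 58.96, rank 71, with a −log10 p of 49.98. The peak at chr7:73242562-73242825 was 16 fragments high (9.15 to 26.0), equal to the list median, with a fold of 8.02, above 12.7% of the list.

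The listed folds of the peaks in this window differed more than their heights. The local background was 0.594 fragments at the first and 1.99 at the second, and the intervals of their heights overlapped slightly. No interval was computed for background or fold. Their summits were 34.7 kb apart and lay 6.93 kb below and 27.7 kb above the middle of the window. At least 2 peaks were found in 16.7% of tiles of this width, so the number was unremarkable. With peaks under the median −log10 p of 12.98 left out, 1 of the 2 was counted, and 23.9% of tiles held at least 1 such peak.

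Stronger peaks lay just beyond the CLDN3 and CLDN4 window than within it on one side. At 52.7 kb beyond the lower edge, the peak at chr7:73027074-73027409 ranked 1 in the list by fold, at 138.96, with 68 fragments (52.8 to 86.2) at its summit. Its local background was 0.489, the floor of the list. At 58.6 kb beyond the upper edge, the peak at chr7:73408378-73408815 was 27 fragments high (17.8 to 39.3) at a fold of 51.55, rank 110. Folds of at least 50 were found in 1 of the 12 claudin peaks, the higher one of this window, and in 1.66% of the list. Both peaks beyond the edges, which are no members, had such a fold.

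**Figure D3:**
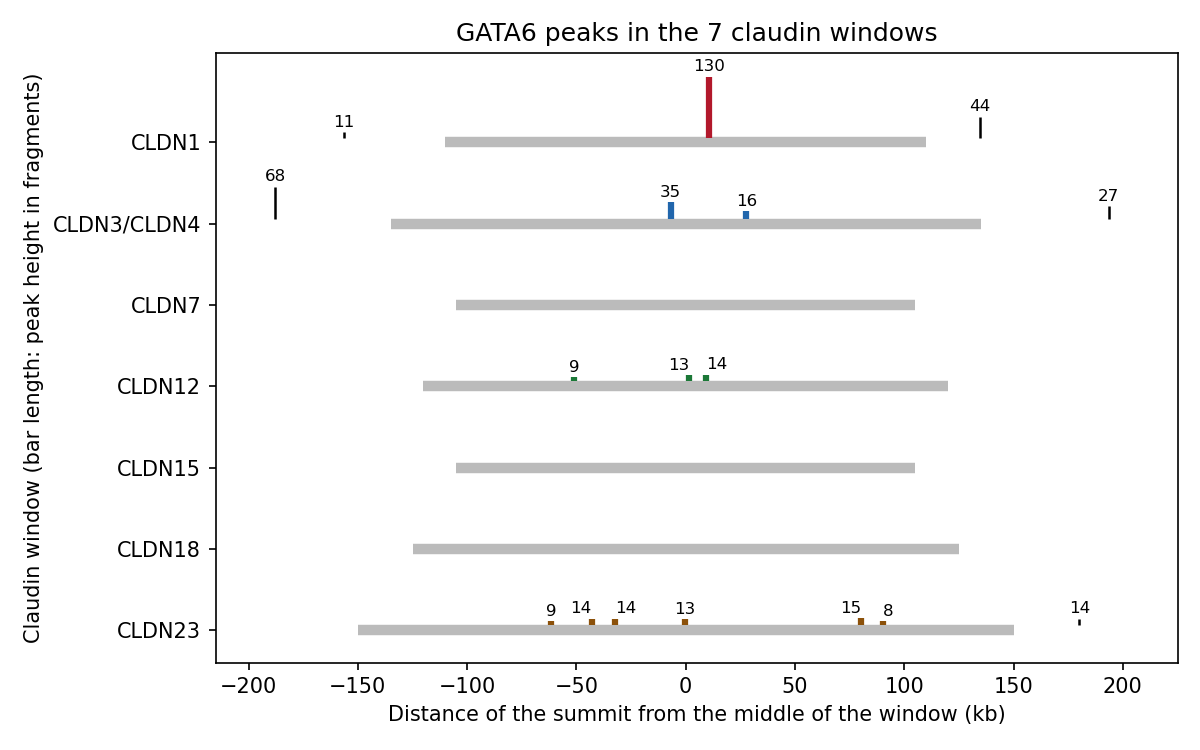
Each claudin window as a grey bar, with the distance of summits from its middle in kb on the x axis and the peak height in fragments as the length and label of each vertical line. Coloured lines are the 12 peaks within the windows and thin black lines the peaks up to 60 kb outside, among them those of 68 and 27 fragments beside CLDN3/CLDN4 and of 44 and 11 beside CLDN1.

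CLDN12 had 3 weak peaks. CLDN12 encodes a claudin that lacks the usual C-terminal motif for binding scaffold proteins and has been linked to calcium passage in the intestine. The peak at chr7:89978775-89979060 was 9 fragments high (4.12 to 17.1), with a fold of 8.59. The peak at chr7:90031368-90031637 was 13 fragments high (6.92 to 22.2), with a fold of 10.64, and the peak at chr7:90039037-90039257 was 14 fragments high (7.65 to 23.5), with a fold of 7.02. All 3 heights were below the list median and their intervals overlapped, so no order among them was resolved.

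The last 2 CLDN12 peaks lay 7.63 kb apart near the middle of the window, and the first lay 52.6 kb below them. They were the only claudin peaks with a neighbour within 10 kb, against 27.2% of the list. At least 3 peaks were found in 6.76% of tiles of this width. None of the 3 had a −log10 p at or above the list median of 12.98, so the locus was empty once peaks under that score were left out. Tiles of this width held 0.312 peaks of that score on average, so most of them were empty too.

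CLDN23 had the most peaks of the claudin loci, and all were low. CLDN23 encodes a less studied claudin of the intestinal surface epithelium. In order of position, the heights were 9, 14, 14, 13, 15 and 8 fragments, each below the list median of 16. The lowest had an interval of 3.45 to 15.8 and the highest one of 8.40 to 24.7, so their heights were not resolved from each other. Over 300 kb this was 20.0 peaks per Mb, against 2.39 over chromosome 8. At least 6 peaks were found in 119 of 9651 tiles of this width, or 1.23%.

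The backgrounds of the CLDN23 peaks, computed as height divided by fold, differed more than their heights, but no interval was computed for the backgrounds. Whether these differences exceed counting error was not tested. The peak at chr8:8517717-8517957 had the largest fold of the group, 28.61, at a height of 14 and a background of 0.489, the floor of the list. The peak at chr8:8488153-8488429, of height 9, had that background too and a fold of 18.39. The peak at chr8:8549614-8549830 had nearly the same height, 13, but a background of 1.99 and a fold of 6.52. At chr8:8506892-8507068 and chr8:8630079-8630299 the folds were 14.03 and 15.04, with a background of 0.998 and 0.997, and at chr8:8640320-8640494 the fold was 11.46.

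The CLDN23 peaks formed loose groups rather than a tight cluster. The first 3 summits were separated by 18.7 and 10.9 kb, the fourth lay 31.8 kb farther on, and the last pair, 80.5 kb beyond it, was 10.2 kb apart. Under the list's median −log10 p lay 4 of them, which left 2, and 8.65% of tiles of this width held at least 2 peaks of that score. The window belongs to a dense stretch of chromosome 8. The 1 Mb from 8 to 9 Mb held 19 peaks, of which 13 lay outside the CLDN23 window, with heights of 12 to 31 and a median of 16. The median background of those 13 was 2.00, against 0.848 for the 6 in the window, whose values ran from 0.489 to 1.99. No interval was computed for these medians, and their difference was not tested.

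**Figure D4:**
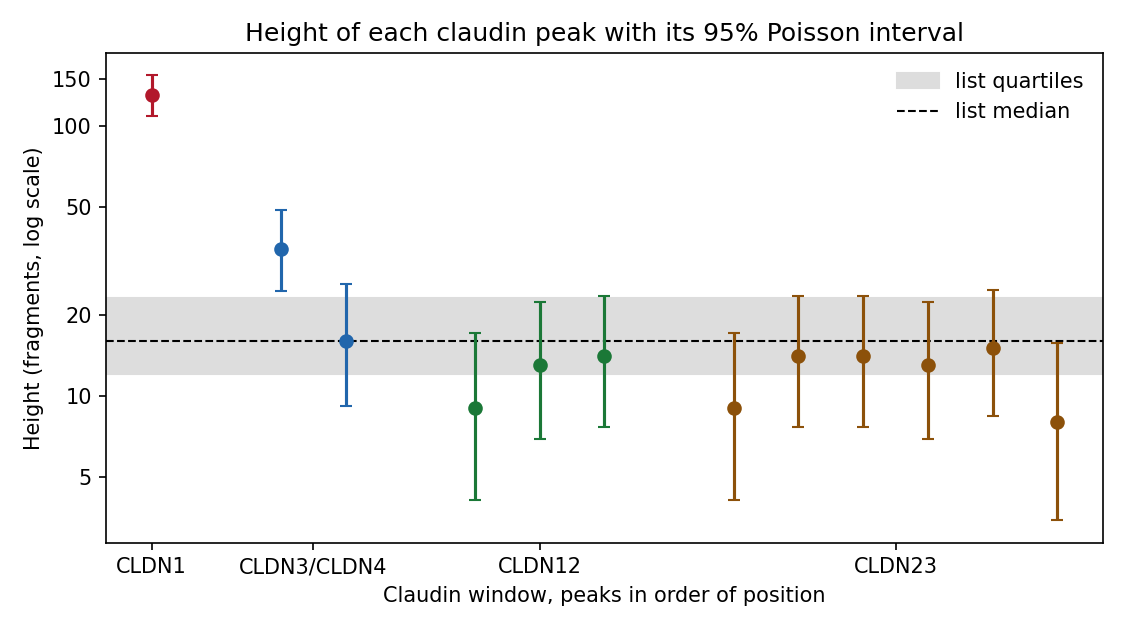
Height in fragments on a log scale (y axis) of the 12 claudin peaks, in order of position within each window (x axis), with 95% Poisson intervals that cover counting error only. The dashed line is the list median of 16 and the band runs from 12 to 23, the quartiles of the list. The CLDN1 peak and the first CLDN3/CLDN4 peak are above the band with their whole intervals.

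No GATA6 peak was listed in the CLDN7, CLDN15 and CLDN18 windows. CLDN7 encodes a claudin that in the intestine also lies along the sides of the cells and binds EpCAM, CLDN15 one that forms sodium pores in the small intestine, and CLDN18 one with separate lung and stomach forms. Of tiles with the width of these windows, 68.6%, 68.6% and 64.9% had no peak either. A peak list holds only regions that passed the caller's threshold, so a window without a peak may still have held GATA6 signal below it.

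Between 29.3% and 63.3% of positions lay in peak-free stretches at least as long as those around these windows. The CLDN18 window lay in a stretch of 1930 kb between neighbouring summits, 906 kb from the summit below it and 774 kb from the one above it. Of all distances between neighbouring summits, 3.41% were as long, but these made up 29.3% of the summed distance, and the median was 128 kb. The stretch around CLDN7 was 928 kb, a length reached by 11.4% of distances and 56.4% of the summed distance, on chromosome 17, which carried 3.34 peaks per Mb. Its nearest peak was 110 kb below the window, with a height of 15. The stretch around CLDN15 was 729 kb, a length reached by 14.6% of distances and 63.3% of the summed distance, with the nearest peak 248 kb above the window, of height 27 (17.8 to 39.3) and fold 27.06. The share of the summed distance is the share of positions that lie in a stretch of at least that length. Distances across sequence in which peaks cannot be called were not left out of it.

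Among themselves, the 12 claudin peaks were mostly lower than the list as a whole. Heights were below the median of 16 in 9 of 12, against 49.3% of the list, and above it in 2, against 45.9%. Their median height was 14 and their median fold 12.8, against 14.03 in the list, and 5 of 12 folds were above the list median, against 49.2%. Folds of at least 10 were found in 8 of 12, against 76.5% of the list. Widths were above the list median in 6 of 12 (49.9% of the list) and backgrounds in 6 of 12 (49.8%). Of the 9 lower peaks, all came from the CLDN12 and CLDN23 windows, so these shares rest on 2 loci.

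**Figure D5:**
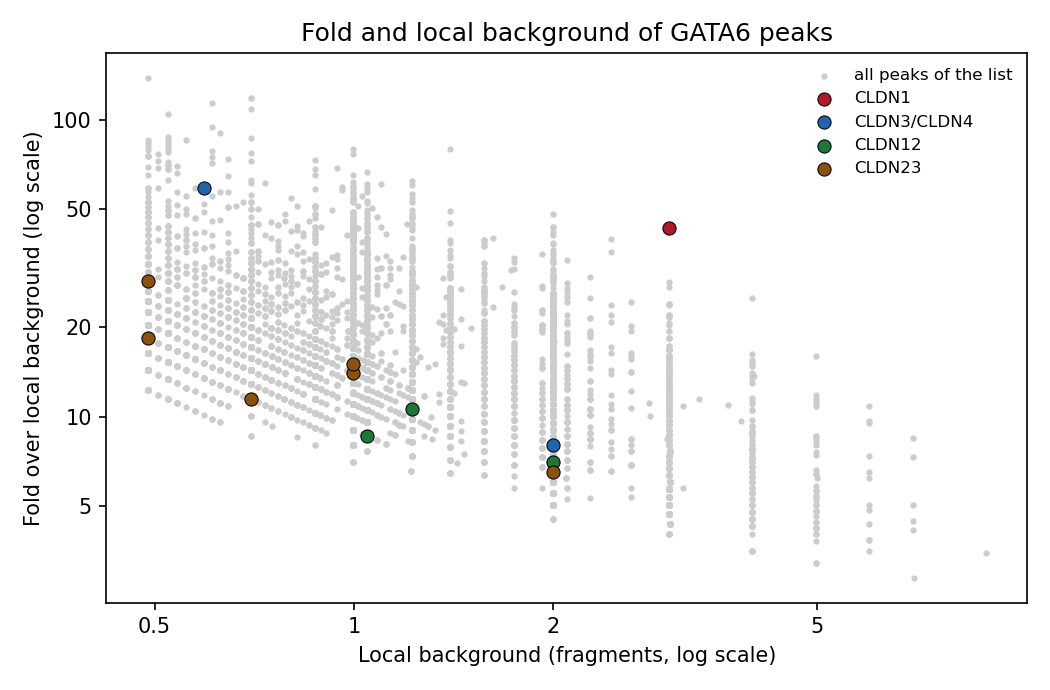
Fold over local background (y axis, log scale) against that background in fragments (x axis, log scale) for all peaks (grey) and the 12 claudin peaks (colours by window). The CLDN1 peak, with a fold of 43.44, is the uppermost point at its background of 2.99, and the first CLDN3/CLDN4 peak reached 58.96 at 0.594.

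The limits of the windows did not fall close to any peak within them. The claudin peak closest to an edge was the last of CLDN23, 59.6 kb inside, with a height of 8 fragments. The closest peaks outside were the one of height 44 near CLDN1, at 24.6 kb, and one of height 14 near CLDN23, at 30.1 kb. No hg19 gene annotation was used here, so peaks were not assigned to promoters, introns or other genes within the windows. Apart from CLDN1, the distance of a peak to the start of its claudin gene was not measured.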

How the data were processed

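ChIP-seq of GATA6 in LS174T cells was deposited as 1 peak list. Per the submitters' processing notes, CASAVA 1.8 and BWA 0.5.9-r16 were used on build hg19. The sources used here do not give the peak caller, its control or any pooling of the 3 libraries. Per the file headers, each peak has positions, a pileup, a fold enrichment, and −log10 p-values and q-values as deposited by the authors. The deposited pileup was read here as the height, a coverage signal in whole fragments, not scaled to depth. The deposited fold was read as a linear ratio over a local background. The headers do not state these meanings, and the height intervals and backgrounds rest on them. These scores are the authors' own.

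Local background was computed as height divided by fold, without an interval. Summits were counted in the 7 windows and in all same-width tiles with Python 3.11.15 and numpy 2.4.6. The tile count was checked on simulated positions. For the comparisons, every tile took the place of random windows. Height intervals are exact Poisson intervals at 95% (scipy 1.17.1) and cover only counting error, because PCR copies of a molecule could not be told apart. Motifs were searched in the RefSeq promoters of GRCh38.p14. The 8 genes, the windows, the motifs and the lists were chosen with earlier results of these data known. All peaks in the windows are named by rule. Peaks outside them that the text gives were picked after their values were seen. Other tight junction genes were not counted, since no hg19 annotation was used here. Alternatives changed the score threshold, the joining of summits, the window width, the overlap rule, the placement and choice of tiles, and the list that percentiles refer to.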

Additional observations from a re-analysis of the deposited data

How the results depend on the processing

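The 12 peaks in the 7 windows were also counted when summits within 1 kb were joined, when windows were 50 kb narrower on each side, and when any overlap counted. Those unchanged counts follow from the distances. The closest pair of claudin peaks was 7.63 kb apart, the peak nearest an edge was 59.6 kb inside, and the nearest one outside was 24.6 kb away. At a fold of at least 10, 8 peaks were counted. The count moved to 4 with peaks under the median −log10 p left out, to 20 with windows 100 kb wider on each side, and to 6 without CLDN23, an alternative chosen after seeing the data. The first and the last of these follow from counting fewer peaks or windows, and the wider windows took in more sequence. Tiles held 0.273 to 0.391 peaks at or above the median −log10 p on average, depending on the width, against 0.546 to 0.780 with all peaks. No tile mean was computed for the wider windows. Windows with a peak numbered 3 with the better-scoring peaks and without CLDN23, and 4 otherwise. The median claudin height was above 36.9% of the list, 37.1% of the peaks of the same chromosomes and 4.76% of the better-scoring peaks, which hold few low ones by construction. Tiles shifted to start at the middle of the former ones left the share within its 95% exact binomial interval for 7 of 7 windows, tiles in 1 Mb bins that hold a peak moved it for 7, and tiles of the same chromosome for 6. At CLDN23 the share of tiles with as many peaks was 1.25%, 1.67% and 1.65% under these, against 1.23%. The binomial interval was only a yardstick here, since all tiles were counted and none was drawn at random, so it measures no spread. A share outside it can have changed little, as at CLDN1 from 32.4% to 34.7% among tiles of the same chromosome. No paired analysis was possible because the list has no value per library, and for the same reason no library could be left out. Depth per library is unknown, so peaks below the caller's threshold cannot be told from absent ones.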

Other observations

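Claudin genes outside the 8 loci were looked up in the RefSeq promoters of GRCh38.p14, with no peak data attached, since their hg19 positions were not used here. Promoters were matched for 12 such genes, with 18 starts. GATAA on either strand was present in 7 of the 18, which belonged to 6 of the 12 genes, against 22.7% of all promoters and 2 of 9 at the claudin loci described above. Both starts of CLDN16, which overlaps CLDN1, held it, 95 and 47 bases before the start. The longer AGATAA was present at CLDN6 and CLDN14, in 2 of the 18 promoters, against 10.3% of all promoters. The base composition of these promoters ran from 33.7% to 77.3% G and C, and GATAA is itself rich in A and T. The part of base composition in these counts was not tested.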
